A study of Mus musculus with 9 samples.

Results

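The let-7 family and its close relative miR-98 were followed here across a radiation series in mouse osteoblastic cells. The members were the array features named mmu-let-7a-5p, mmu-let-7b-5p, mmu-let-7c-5p, mmu-let-7d-5p, mmu-let-7e-5p, mmu-let-7f-5p, mmu-let-7g-5p, mmu-let-7i-5p, mmu-let-7k and mmu-miR-98-5p (written below without the species prefix), which makes 10 members of the 1881 mouse miRNAs on the array. Each member was measured by 2 probes and 30 spots per array. The cells came from the marrow of 8-week-old male C57BL/6 mice. They spent 7 days in plain culture, followed by another 7 days with β-glycerol phosphate, ascorbic acid 2-phosphate and dexamethasone, a mixture that drives marrow stromal cells towards osteoblasts. Cells of the irradiated groups received 0.5 Gy or 1 Gy of alpha particles, which are densely ionising helium nuclei, at 0.22 Gy/min, and the control group is labelled 0 Gy. Total RNA of each sample was hybridised to a one-colour (Cy3) miRNA array, with 3 arrays per dose and 9 in all. The series compares the miRNA pattern between these doses. Whether a dose's 3 samples are separate mice or cultures is not in the labels, so each p-value measures only how far these samples spread, and that spread may be technical. The sources used here do not state how long after exposure RNA was taken.

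A miRNA is a short RNA that guides an Argonaute protein to partly complementary messenger RNAs and lowers their translation or stability. Target choice rests mainly on the seed, the bases near the 5′ end, so members of a family with one seed can bind largely the same targets. The let-7 family is known for rising during differentiation and for repressing growth-promoting messengers such as those of the RAS and HMGA2 genes and of LIN28, a protein that in turn blocks let-7 maturation. Several let-7 hairpins lie beside other miRNA hairpins, and some of these are cut from the same primary transcript.

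The mature sequences show why the 10 members belong together and how little separates them, with the seed (bases 2 to 8) in capitals (RefSeq, GRCm38.p6):
let-7a-5p: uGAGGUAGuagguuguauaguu
let-7b-5p: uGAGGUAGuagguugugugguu
let-7c-5p: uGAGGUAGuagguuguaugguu
let-7d-5p: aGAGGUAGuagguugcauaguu
let-7e-5p: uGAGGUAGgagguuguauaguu
let-7f-5p: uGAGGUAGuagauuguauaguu
let-7g-5p: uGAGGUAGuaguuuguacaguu
let-7i-5p: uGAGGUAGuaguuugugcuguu
let-7k: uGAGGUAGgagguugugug
miR-98-5p: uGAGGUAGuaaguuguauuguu
All 10 members matched the sequence table and carry the seed GAGGUAG. Counted from 1 at the 5′ end of let-7a-5p, with the let-7a base first, let-7c differs from let-7a by A19G alone. Both let-7e and let-7f also differ from let-7a at 1 base, U9G and G12A. The changes in let-7b are A17G and A19G, so let-7b and let-7c are also 1 base apart. The other 22-base members differ from let-7a by 2 to 4 bases, as U1A and U16C in let-7d, G12U and U18C in let-7g, and G11A and A19U in miR-98. With 4 changes (G12U, A17G, U18C and A19U), let-7i stands farthest from let-7a. The 19-base let-7k differs at 3 positions (U9G, A17G and A19G). How far a probe for one member also binds a member 1 base away was not tested.

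In the RefSeq table, the let-7a-1, let-7f-1 and let-7d hairpins lie within 100 kb of each other on chromosome 13, and let-7b and let-7c-2 lie together on chromosome 15. The let-7c-1 hairpin is beside that of miR-99a on chromosome 16, let-7e beside miR-125a on chromosome 17, and let-7f-2 beside miR-98 on chromosome X. The let-7g hairpin is beside that of miR-135a-1 on chromosome 9, and the hairpins of let-7i and let-7k are on chromosomes 10 and 5. Both let-7c and let-7f therefore have 2 hairpins in this table, and the array cannot tell which one a mature strand came from. For let-7a the table lists the let-7a-1 hairpin alone. The array also holds a strand named let-7a-2-3p, so this list of hairpins may not be complete.

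Signals are given as log2 of the scaled signal. The scaling divided every array by the 75th percentile of the 45 probes that all 9 arrays detected. A probe counted as detected where the software marked at least 50% of its spots as well above background, and a miRNA where any probe passed. Lower values were set to a floor of 3.52 on the log2 scale, where no order can be read. The arrays differed in ways that touch the let-7 values. Array 1 at 0.5 Gy and array 1 at 1 Gy had an additive error, the scanner software's estimate of background noise in signal units, of 19.4 and 11.2, against 1.60 to 2.83 on the other 7 arrays. Between 144 and 234 miRNAs were detected per array, 446 on at least 1 array, and 28 on all 9. Of the 446, 145 (32.5%) were detected only on array 1 of 0.5 Gy or of 1 Gy.

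Some miRNAs usual for stromal and bone-forming cells were detected. Of 8 such markers, 6 were detected on at least 1 array, among them miR-199a-3p and miR-214-3p, and 1 (miR-125b-5p) on all 9. On array 1 of every dose miR-199a-3p, miR-199a-5p, miR-21a-5p and miR-29a-3p were not detected. The markers miR-143-3p and miR-145a-5p, typical of smooth muscle and fibroblasts, were detected on no array. The summed level of this list ran from 80.5 to 1282 scaled units at 0 Gy, from 351 to 1220 at 0.5 Gy and from 488 to 1207 at 1 Gy. It was lowest on array 1 at every dose. Of 5 myeloid markers, 2 were detected (miR-223-3p and miR-342-3p), with sums of 0 to 70.3, 0 to 60.7 and 0 to 58.9 scaled units at the 3 doses, and miR-142a-3p, miR-142a-5p and miR-155-5p were not detected. Of 2 lymphoid markers, miR-181a-5p was detected, at 66.9 to 199, 164 to 204 and 144 to 210 scaled units, and miR-150-5p was not. None of the 3 erythroid and platelet, 2 endothelial, 3 epithelial and 3 muscle markers was detected on any array. The part that the makeup of each culture plays in the let-7 values was not tested, and in such bulk RNA fewer cells of a type and less RNA per cell cannot be told apart.

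Of the 10 members, let-7a, let-7b and let-7c were detected on all 9 arrays. Another 5 (let-7d, e, f, g and i) were detected on 5 or 6 arrays, and let-7k and miR-98-5p on none. The number of members detected was 3, 5 and 8 on arrays 1, 2 and 3 at 0 Gy, and 3, 8 and 8 at both 0.5 Gy and 1 Gy. Array 1 therefore showed only let-7a, b and c at each dose. The scanner software's own detection call gave 3 to 9 members per array and also 3 on each array 1. The share of the summed positive signal of all miRNAs that fell on the 10 members was 0.188%, 2.40% and 14.1% on arrays 1, 2 and 3 at 0 Gy. The shares were 0.888%, 8.70% and 13.4% at 0.5 Gy, and 1.95%, 6.61% and 8.63% at 1 Gy. Signals of different probes are not amounts of RNA, so these shares describe the arrays and not the share of molecules.

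**Figure D1:**
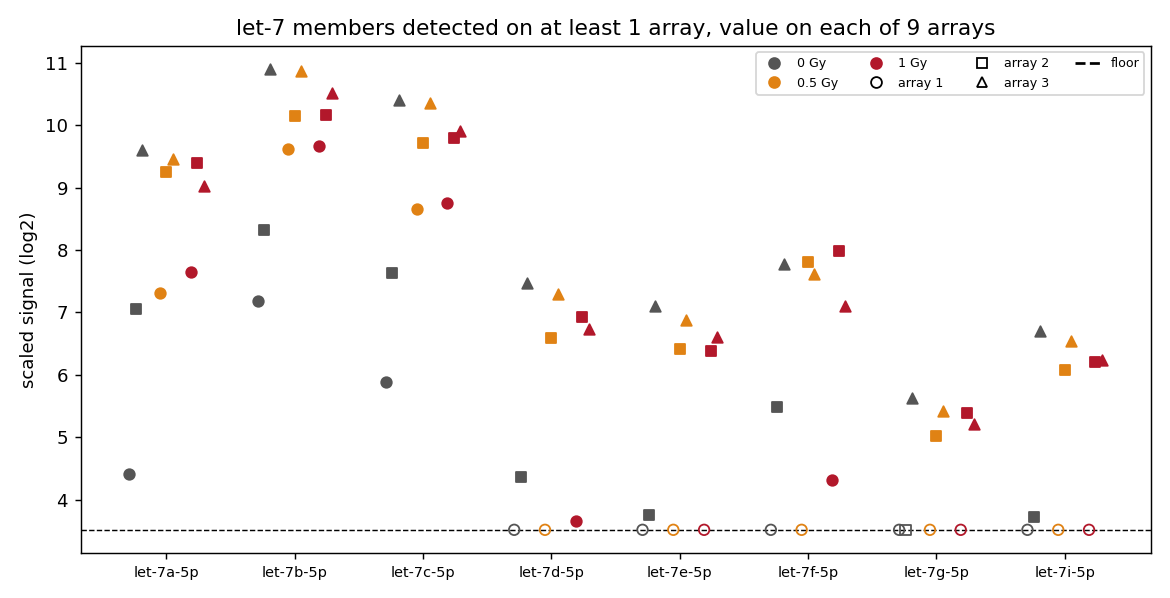
The 8 members detected on at least 1 array are plotted along the x axis, with the log2 scaled signal on the y axis, 1 point per array, colour for dose and shape for array number; open symbols on the dashed line are at the floor of 3.52. At 0 Gy the points spread from array 1 (lowest) to array 3 (highest), and array 3 at 0 Gy lies among or above the irradiated arrays.

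For let-7a-5p, the family's most conserved member, the log2 signals on arrays 1, 2 and 3 were 4.42, 7.05 and 9.60 at 0 Gy. They were 7.31, 9.26 and 9.46 at 0.5 Gy, and 7.65, 9.40 and 9.02 at 1 Gy. Arrays 1 and 2 at 0 Gy were below all 6 irradiated arrays, but array 3 at 0 Gy was above all of them, so the doses overlapped. The means were 7.02 ± 2.59, 8.67 ± 1.19 and 8.69 ± 0.92 (SD, n = 3 each).

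For let-7b-5p, whose hairpin lies beside one of the let-7c hairpins, the signals were 7.19, 8.33 and 10.90 at 0 Gy. They were 9.62, 10.14 and 10.87 at 0.5 Gy, and 9.66, 10.16 and 10.52 at 1 Gy. The pattern was that of let-7a, with array 3 at 0 Gy the highest of the 9 arrays. The means were 8.81 ± 1.90, 10.21 ± 0.63 and 10.11 ± 0.43 (SD, n = 3 each).

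For let-7c-5p the signals were 5.88, 7.64 and 10.40 at 0 Gy. They were 8.65, 9.72 and 10.35 at 0.5 Gy, and 8.75, 9.80 and 9.90 at 1 Gy. Again 2 control arrays were below, and 1 above, every irradiated array. The means were 7.98 ± 2.28, 9.58 ± 0.86 and 9.49 ± 0.64 (SD, n = 3 each). For each of the 3 members 0 Gy had the lowest mean, and neighbouring doses in that order differed by less than the spread at 0 Gy.

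The spread between arrays was far wider than that between spots. Over the spots of a detected probe on 1 array, the median coefficient of variation was 5.42% for let-7a, 5.63% for let-7b and 6.08% for let-7c, and the standard error of a probe's log2 signal was at most 0.0540 for these 3 members. Their separate probes gave similar differences, as the 0.5 Gy minus 0 Gy values of 1.68 and 1.51 for the 2 let-7a probes show. The let-7a probe with 1.51 was detected on 6 arrays, and on array 1 of no dose. Of the let-7c probes, 1 was detected on 8 arrays. These differences also use the arrays where a probe was not detected.

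Exposure to 0.5 Gy was compared with 0 Gy by limma over 134 miRNAs (those seen on every array of 1 dose or more), with Benjamini-Hochberg adjustment over all of them. The signal of let-7a was higher at 0.5 Gy by 1.65 on the log2 scale (SE 1.17, 95% interval -0.98 to 4.28), let-7b by 1.40 (SE 0.84, -0.49 to 3.30) and let-7c by 1.60 (SE 1.01, -0.65 to 3.85). These are ratios of 3.14, 2.65 and 3.03, and none passed the test (limma adjusted p = 0.561 for each, unadjusted p = 0.191, 0.128 and 0.144). No member was called, and 0% of the 134 miRNAs were. At an unadjusted p under 0.05 limma gave 2 of the 134, neither of them a let-7 member. All 3 members had the higher mean at 0.5 Gy, as did 28.4% of all tested miRNAs and 50% of the 28 detected on all 9 arrays. Over the 3 members the median difference was 1.60, and over the 134 it was -0.47.

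Between 1 Gy and 0 Gy, which uses the same control arrays, let-7a was higher by 1.67 (SE 1.17, 95% interval -0.96 to 4.30), let-7b by 1.31 (SE 0.84, -0.58 to 3.20) and let-7c by 1.51 (SE 1.01, -0.74 to 3.76). None passed (limma adjusted p = 0.539 for each, unadjusted p = 0.186, 0.153 and 0.165), and 0% of the 134 miRNAs were called. An unadjusted p under 0.05 was reached by 4 miRNAs in limma, with no let-7 member among them. All 3 members had the higher mean at 1 Gy, against 25.4% of all tested and 53.6% of those detected on all 9 arrays. Over the members the median difference was 1.51, and over all tested it was -0.49.

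The irradiated doses lay close to each other. From 0.5 Gy to 1 Gy the difference was 0.018 for let-7a (95% interval -2.61 to 2.65), -0.097 for let-7b (-1.99 to 1.79) and -0.09 for let-7c (-2.34 to 2.16). The intervals leave room for changes of either sign, and the limma adjusted p was 0.999 for each. Here 0% of the 134 miRNAs were called, and limma gave 0 at an unadjusted p under 0.05. One member of the 3, let-7a, had the higher mean at 1 Gy, against 44% of all tested and 39.3% of the 28 detected on all 9 arrays.

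With the 6 irradiated arrays set against 0 Gy, let-7a was higher by 1.66 (SE 1.02, 95% interval -0.62 to 3.94), let-7b by 1.36 (SE 0.73, -0.28 to 2.99) and let-7c by 1.56 (SE 0.87, -0.40 to 3.51). The limma adjusted p was 0.446 for each, and the smallest unadjusted p was 0.0943, for let-7b. The share called was 0% of 134, with 7 miRNAs at an unadjusted p under 0.05 in limma and no member among them. The 3 members all had the higher irradiated mean, as did 27.6% of all tested and 50% of those detected on all 9 arrays.

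**Figure D2:**
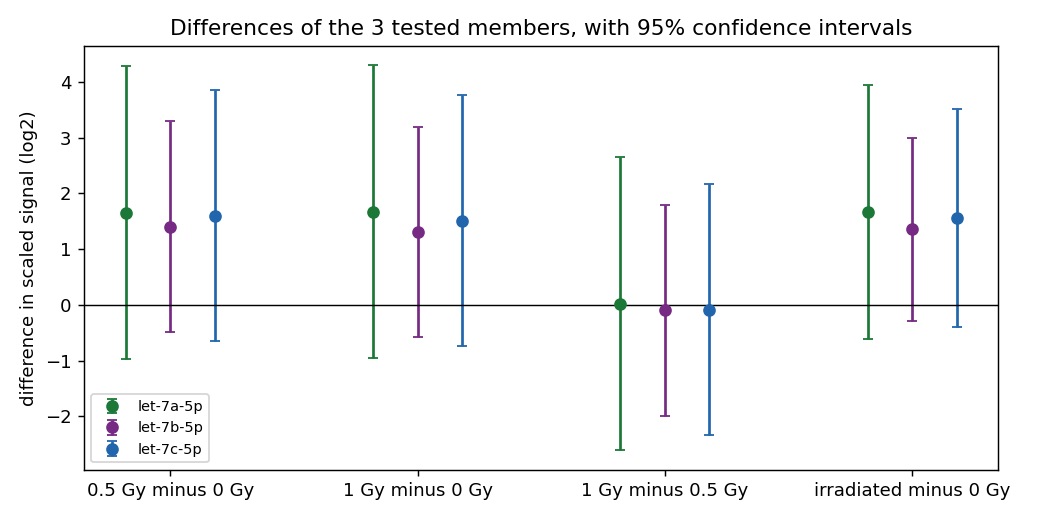
Points give the limma difference in log2 scaled signal (y axis) of let-7a, b and c for the 4 comparisons (x axis), and bars are 95% confidence intervals. The differences against 0 Gy lie between 1.31 and 1.67, and every interval includes 0.

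The size of these differences rested on single control arrays. Without array 1 at 0 Gy, the mean difference of let-7a, b and c from 0 Gy was 0.50 at 0.5 Gy and 0.44 at 1 Gy. Without array 3 at 0 Gy, it was 2.74 and 2.68, and the limma adjusted p of the 3 members lay between 0.190 and 0.315. With all arrays it was 1.55 and 1.50. The arrays lay on 3 slides, with arrays 1 and 3 of every dose on one, array 2 of both irradiated doses on another and array 2 of 0 Gy on the last. With slide as a block the mean differences were 1.28 and 1.22, and within the slide that holds 6 arrays 1.31 and 1.19. Array 1 of every dose stood apart in the number of members detected. Leaving out all 3 such arrays, a choice made after seeing the data, gave 0.98 and 0.81.

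The scaling also set the size. When arrays were scaled on all probes the mean difference of the 3 members was 0.32 at 0.5 Gy and 0.25 at 1 Gy, and after quantile normalization 0.58 and 0.84. Relative to the median of all 134 miRNAs, the members stood 2.02 higher at 0.5 Gy in the scaling used here and 0.98 higher when scaled on all probes. At 1 Gy these values were 1.99 and 1.33. The median of all tested miRNAs itself moved, from -0.47 to -0.66 at 0.5 Gy and from -0.49 to -1.08 at 1 Gy. A miRNA could pass the detection filter through 0 Gy alone, and the median also moved with that filter. Over the 28 miRNAs detected on all 9 arrays, the members stood 1.54 and 1.35 above the median at 0.5 and 1 Gy. Without the filter, over 1011 miRNAs, they stood 0.63 and 1.04 above it.

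**Figure D3:**
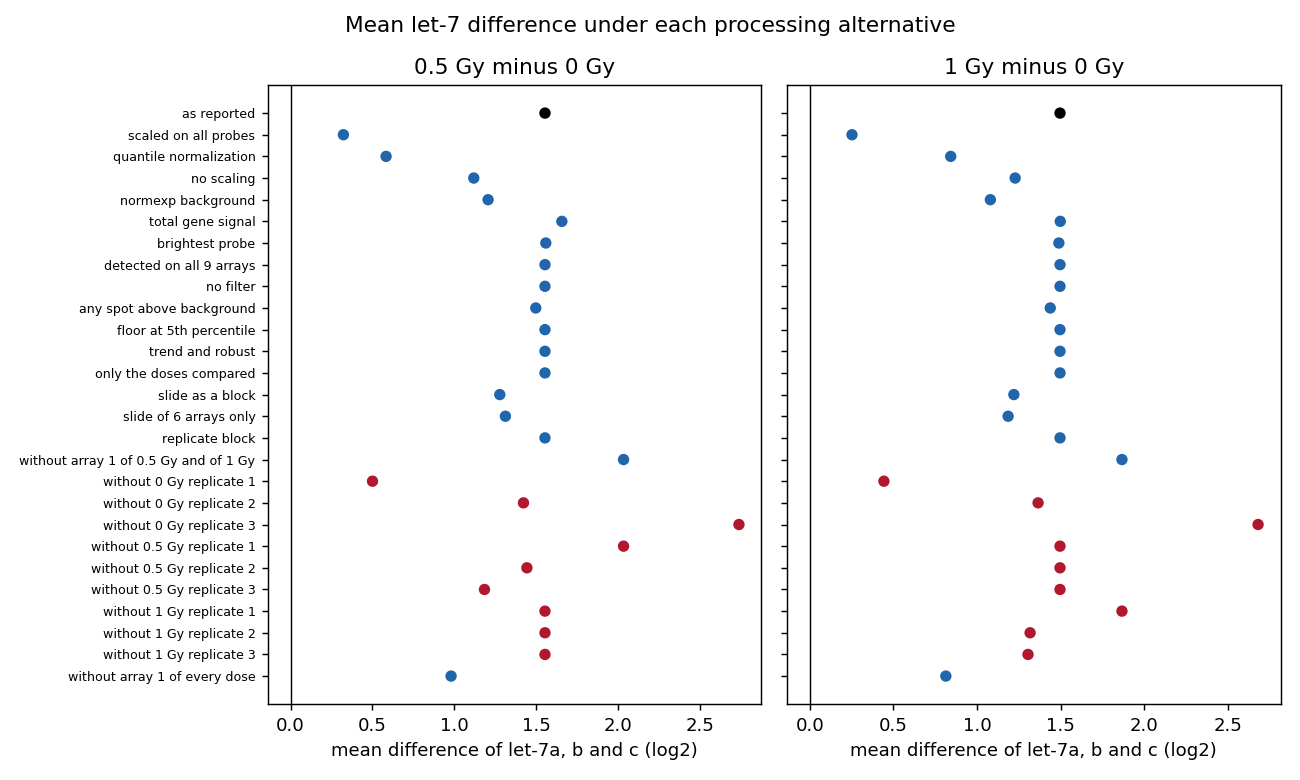
Each point is the mean log2 difference (x axis) of let-7a, b and c from 0 Gy under 1 setting (y axis), with 0.5 Gy on the left and 1 Gy on the right; black marks the value as reported, red a fit without 1 array (replicate) and blue every other setting. All points are above 0, from 0.32 to 2.74 at 0.5 Gy and from 0.25 to 2.68 at 1 Gy.

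Differences between 2 members on the same array do not depend on the factor that scaled that array. They can still depend on its background subtraction, and the let-7a sum includes a probe not detected on array 1 of any dose. The zero of these differences has no meaning as an amount, since each probe has its own brightness, and only changes between arrays can be read. The log2 signal of let-7a minus that of let-7b was -2.78, -1.27 and -1.30 on arrays 1, 2 and 3 at 0 Gy. It was -2.31, -0.89 and -1.41 at 0.5 Gy and -2.01, -0.76 and -1.50 at 1 Gy. In each dose the lowest value was on array 1, and the doses overlapped.

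The let-7a minus let-7c difference, between members that differ by 1 base, ran from -1.46 to -0.59 at 0 Gy, from -1.34 to -0.47 at 0.5 Gy and from -1.10 to -0.40 at 1 Gy. The let-7c minus let-7b difference ran from -1.31 to -0.50, from -0.97 to -0.42 and from -0.91 to -0.36. Both were lowest on array 1 at every dose. Over 3 pairs and 4 comparisons, 12 exact permutation tests (two-sided) gave p from 0.405 to 1 and Benjamini-Hochberg adjusted values from 0.873 to 1, with 0 below an unadjusted p of 0.05. With 3 arrays against 3, the smallest p such a test can give is 0.1, and with 6 against 3 it is 0.0119. A change in the balance of let-7a, b and c with dose was not detectable in these arrays.

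**Figure D4:**
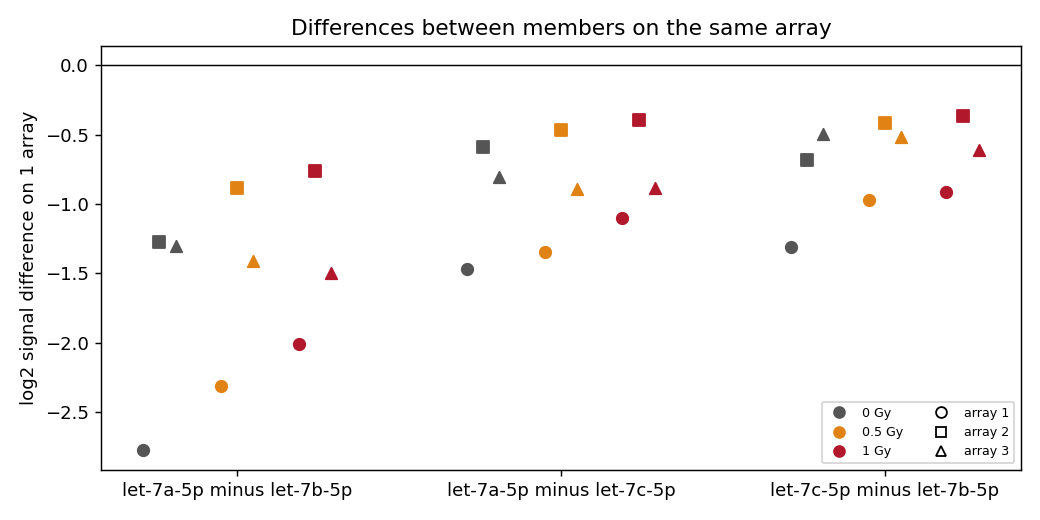
Points give the log2 signal difference of 2 members on 1 array (y axis) for the 3 pairs (x axis), with colour for dose and shape for array number. Array 1 is the lowest point of each dose in each pair, and the doses overlap.

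The 3 members varied together from array to array. Over the 9 arrays Pearson's r was 0.951 for let-7a and let-7b (exact permutation p = 0.000124), with Spearman's rho 0.95 (exact p = 0.000353). It was 0.984 for let-7a and let-7c (exact permutation p = 5.24e-05), with rho 0.95 (exact p = 0.000353), and 0.991 for let-7c and let-7b (exact permutation p = 2.76e-06), with rho 1 (exact p = 5.51e-06). After Benjamini-Hochberg adjustment over the 3 pairs the Pearson p-values were 0.000124, 7.85e-05 and 8.27e-06 (exact permutation), and those of rho were 0.000353, 0.000353 and 1.65e-05 (exact permutation). Without arrays 1 and 2 at 0 Gy, the 2 farthest from the median, r was 0.853, 0.957 and 0.967. With each dose centred on its mean it was 0.939, 0.980 and 0.988, so the joint movement was also present within doses. Within the slide of 6 arrays r was 0.995, 0.998 and 0.999 (exact permutation p = 0.00139 for each, the smallest that 6 arrays can give). The values share each array's RNA, labelling and scaling factor.

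Another 5 members were measured on part of the arrays only. For let-7d-5p, which shares a chromosome 13 cluster with let-7a-1 and let-7f-1, the signals were 3.52 (floor), 4.36 and 7.47 at 0 Gy. They were 3.52 (floor), 6.59 and 7.30 at 0.5 Gy, and 3.66 (not detected), 6.93 and 6.74 at 1 Gy. It was thus detected on 2 arrays of each dose, never on array 1.

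For let-7f-5p, also from that cluster and from chromosome X, the signals were 3.52 (floor), 5.49 and 7.78 at 0 Gy. They were 3.52 (floor), 7.80 and 7.62 at 0.5 Gy, and 4.32 (not detected), 7.99 and 7.11 at 1 Gy. Detection again left out array 1 of each dose, and the doses overlapped.

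For let-7e-5p, encoded beside miR-125a, the signals were 3.52 (floor), 3.75 (not detected) and 7.10 at 0 Gy. They were 3.52 (floor), 6.41 and 6.88 at 0.5 Gy, and 3.52 (floor), 6.38 and 6.61 at 1 Gy. It was detected on 1 control array and on 2 arrays of each irradiated dose. The highest value was on the control array.

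For let-7i-5p the signals were 3.52 (floor), 3.72 (not detected) and 6.71 at 0 Gy. They were 3.52 (floor), 6.08 and 6.55 at 0.5 Gy, and 3.52 (floor), 6.21 and 6.23 at 1 Gy. Detection was that of let-7e.

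For let-7g-5p the signals were 3.52 (floor), 3.52 (floor) and 5.63 at 0 Gy. They were 3.52 (floor), 5.03 and 5.42 at 0.5 Gy, and 3.52 (floor), 5.39 and 5.21 at 1 Gy. As for let-7e and let-7i, 1 control array and 2 arrays of each irradiated dose detected it, and that control array was the highest of the 9.

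These 5 members were not detected on all arrays of any dose and so were outside the 134 tested. In limma without that filter, over 1011 miRNAs, their differences from 0 Gy ran from 0.43 (let-7g) to 0.81 (let-7e) at 0.5 Gy and from 0.48 (let-7g) to 0.87 (let-7f) at 1 Gy, each with a standard error of 0.83 to 1.60. The median over those 1011 miRNAs was 0.92 at 0.5 Gy and 0.45 at 1 Gy, and limma called 0 of them, with 4 and 5 at an unadjusted p under 0.05. Without array 1 of every dose, all 8 detected members could be tested among 180 miRNAs. Their differences were then 0.65 (let-7g) to 1.22 (let-7e) at 0.5 Gy and 0.73 (let-7g and let-7b) to 1.07 (let-7e) at 1 Gy, with limma adjusted p = 0.981 for each at 0.5 Gy and 0.669 to 0.689 at 1 Gy. In this setting let-7e, g and i passed the filter only through the irradiated doses, so a higher irradiated mean was partly built in for them. The median over the 180 miRNAs was 0.078 at 0.5 Gy and 0.075 at 1 Gy.

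Detection on array 3 at 0 Gy and on arrays 2 and 3 of both irradiated doses, with none on any array 1 and either state on array 2 at 0 Gy, was seen for 29 of the 446 detected miRNAs (6.50%). Let-7d, e, f, g and i are 5 of the 29, and among the others are miR-199a-3p, miR-199a-5p, miR-21a-5p and miR-29a-3p of the stromal list and miR-223-3p of the myeloid list. This pattern was chosen after the values were seen. The remaining members, let-7k and miR-98-5p, were at the floor on all 9 arrays, so no difference can be given for them.

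The other strands of the let-7 hairpins, which are usually degraded when the 5p strand is loaded, were detected on few arrays. The list of 13 RNAs also holds let-7j, whose 5′ end resembles that of the members and which is not a strand of this kind. Of the 13, 12 were on the array, 5 were detected on some array and 0 could be tested. On array 1 of 0, 0.5 and 1 Gy, 2, 5 and 3 of them were detected. Array 3 of 1 Gy detected 2, and the other 5 arrays detected 0. Of the 12 detections, 10 were on an array 1, where 3 members (let-7a, b and c) were detected at each dose, and 2 were on array 3 of 1 Gy, where 8 members were. For let-7b-3p the signals were 4.75, 3.94 (not detected) and 3.74 (not detected) at 0 Gy. They were 9.60, 3.88 (not detected) and 3.52 (floor) at 0.5 Gy, and 8.45, 3.52 (floor) and 5.52 at 1 Gy. The strand let-7d-3p was detected on the same 4 arrays, at 4.73, 9.79, 8.56 and 5.38. Detection of let-7e-3p was limited to array 1 of 0.5 Gy (9.35) and array 1 of 1 Gy (8.22), and that of let-7a-2-3p (8.20) and let-7g-3p (8.75) to array 1 of 0.5 Gy. The arrays with the highest 3p signals are those with additive errors of 19.4 and 11.2, and the part of that noise in these signals was not tested.

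Relatives by seed were rare. In the sequence table miR-1961 also has the seed GAGGUAG, and it was detected on no array. The seed of miR-202-3p and of let-7j, GAGGUAU, differs at the last base. No array detected let-7j. Detection of miR-202-3p was on 6 arrays, including array 1 at 0 Gy (5.79), where 5 of the 8 detected let-7 members were at the floor. Its highest value was 6.43 on array 2 at 1 Gy.

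Of 5 miRNAs known as primary-transcript neighbours of let-7 hairpins, miR-99a-5p and miR-100-5p were not detected, and miR-99b-5p was detected on 5 arrays. The remaining neighbours, miR-125b-5p and miR-125a-5p, share a seed with each other and with lin-4, the founding miRNA in worms, and were tested. For miR-125b-5p the signals were 5.51, 7.35 and 9.29 at 0 Gy. They were 8.46, 9.10 and 9.26 at 0.5 Gy, and 8.18, 9.24 and 9.34 at 1 Gy. Its difference from 0 Gy was 1.56 (SE 0.84) at 0.5 Gy and 1.54 (SE 0.84) at 1 Gy, close to those of let-7a, b and c, and neither passed (limma adjusted p = 0.561 and 0.539).

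For miR-125a-5p the signals were 3.63, 4.77 and 6.71 at 0 Gy. They were 8.01, 6.45 and 6.72 at 0.5 Gy, and 7.11, 6.42 and 6.57 at 1 Gy. Unlike the let-7 members, its highest values at the irradiated doses were on array 1. Those arrays had the additive errors of 19.4 (0.5 Gy) and 11.2 (1 Gy), and the part of that noise in the miR-125a-5p values was not tested. The difference from 0 Gy was 2.02 (SE 0.76, unadjusted p = 0.0250) at 0.5 Gy and 1.66 (SE 0.76, unadjusted p = 0.0557) at 1 Gy, and neither passed after adjustment (limma adjusted p = 0.561 and 0.539).

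Likeness to the let-7 pattern was measured as Pearson's r with the mean of let-7a, b and c over the 9 arrays, as a description, since all values share the arrays and their scaling. Among the 131 tested miRNAs that are not members the median r was -0.093, 74 were below 0 and 2 were above 0.9. These counts turned with the scaling. Scaled on all probes the median r was 0.762, with 0 below 0 and 12 above 0.9. With no scaling it was -0.30, with 102 below 0 and 2 above 0.9, and after quantile normalization 0.329, with 25 below 0 and 4 above 0.9. The closest, in all 4 of these settings, was miR-125b-5p, with r 0.984 (0.928 without arrays 1 and 2 at 0 Gy). Outside the listed relatives and neighbours, the 5 closest were miR-214-3p (r 0.961), miR-3102-5p (0.848), miR-1949 (0.782), miR-181a-5p (0.751) and miR-6366 (0.703). Without arrays 1 and 2 at 0 Gy these became 0.894, 0.843, 0.982, -0.18 and -0.18, so for miR-181a-5p and miR-6366 the likeness rested on those arrays. The value of r for miR-3102-5p was 0.917 when scaled on all probes and 0.402 with no scaling. For miR-135a-1-3p, from the hairpin beside let-7g and outside the listed neighbours, r was -0.555. Without arrays 1 and 2 at 0 Gy it was 0.945.

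**Figure D5:**
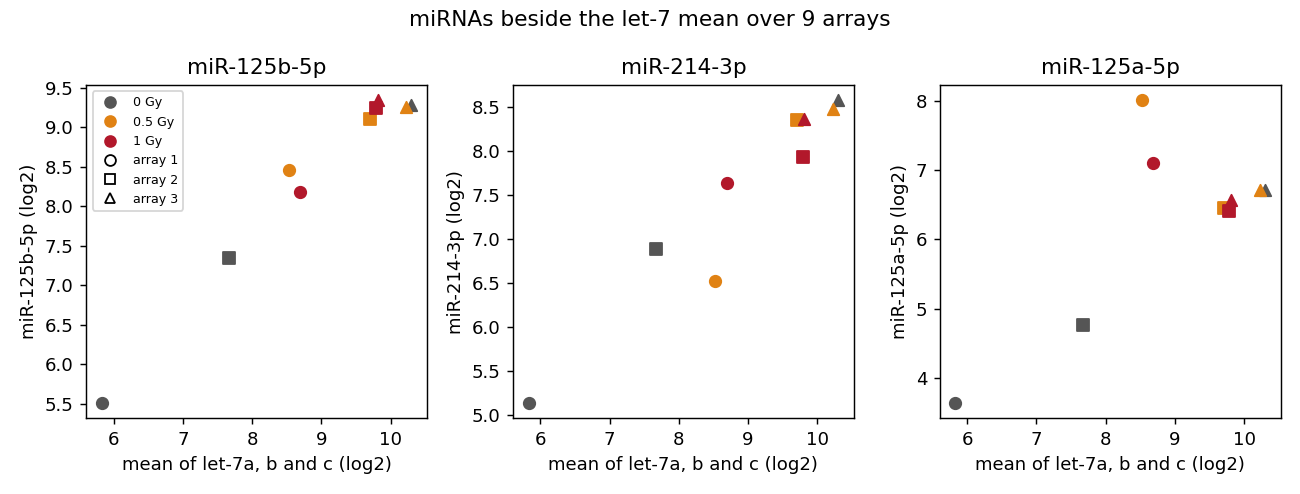
The log2 signals of miR-125b-5p, miR-214-3p and miR-125a-5p (y axes) are set against the mean log2 signal of let-7a, b and c (x axes), 1 point per array, with colour for dose and shape for array number. The first 2 follow the let-7 mean (r 0.984 and 0.961), while miR-125a-5p on array 1 of 0.5 Gy (8.01) and 1 Gy (7.11) lies above the rest (r 0.717).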

How the data were processed

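Per the file headers, the deposited scanner files hold spot intensity values from Agilent Feature Extraction 11.5.1.1 (1 colour, Cy3), background-subtracted and not normalized between arrays. The authors' series table was not used, because its 9 value columns have names that match no sample title. The sources used here do not give the authors' own normalization.

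Spots marked as outliers were left out, spots of a probe averaged, each array scaled, and the probes of a miRNA summed, floored at the 1st percentile of detected values and put on the log2 scale, as computed here from the deposited intensity values. Spot marks (well above background, outlier) are the software's, per the file headers. Tests were limma 3.58.1 in R 4.3.3, with all 9 arrays in 1 fit, on the 134 miRNAs that every array of some dose detected, adjusted p under 0.05 (Benjamini-Hochberg), and exact permutation tests with scipy 1.17.1. Array numbers paired 0.5 Gy with 1 Gy by the deviations of same-numbered arrays (r = 0.84, 0.75 and 0.59), a hint from the data and not from the labels, but not with 0 Gy, and the fit has no block. The limma step was tested on simulated data. The number of arrays limits the precision.

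Named were all members, every detected other arm, seed relative and neighbour, and the 5 other tested miRNAs closest to the mean of the tested members. The members and lists were chosen with earlier results of these data known. Alternatives covered scaling, background (normexp on median spot signals with an offset of 50), probe summary, detection filter, floor, spread model, slide, replicate block and arrays left out.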

Additional observations from a re-analysis of the deposited data

How the results depend on the processing

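In every setting run, limma called 0 members, and the 3 tested members had a mean difference above 0 against 0 Gy, from 0.32 to 2.74 at 0.5 Gy, 0.25 to 2.68 at 1 Gy and 0.29 to 2.71 for both doses together. From 0.5 Gy to 1 Gy the mean ran from -0.54 to 0.31. The labels number the arrays 1 to 3 in each dose. Deviations of same-numbered arrays correlated at -0.13 to 0.16 between 0 Gy and either irradiated dose, and so gave no sign of pairing with 0 Gy. Same-numbered arrays were still alike in part, since array 1 of every dose detected only 3 members and lay on the same slide. Between 0.5 Gy and 1 Gy the deviations correlated at 0.59 to 0.84, a hint of pairing that the labels do not give. Array 1 of both doses had the high additive errors, and array 2 of both lay on the same slide. Whether samples were paired apart from this was not tested. With a replicate block the mean differences stayed 1.55, 1.50, -0.056 and 1.52 in the 4 comparisons and limma called 0 of 134, with 5, 7, 0 and 13 miRNAs at an unadjusted p under 0.05 against 2, 4, 0 and 7 without the block. Among these under the block were let-7b and let-7c for 0.5 Gy against 0 Gy (limma adjusted p = 0.450, unadjusted p = 0.0495 and 0.0452). For both doses against 0 Gy they were let-7a, b and c (limma adjusted p = 0.350, unadjusted p = 0.0298, 0.0329 and 0.0289). The block changed no call after adjustment, including that for 1 Gy against 0.5 Gy. Of the 134 tested miRNAs, 38 were higher at 0.5 Gy than at 0 Gy, against 20 when scaled on all probes, 23 without scaling, 20 with quantile normalization and 107 with normexp. At 1 Gy the number was 34, against 14, 28, 24 and 88. Normexp moved the median of all tested miRNAs to 0.32 at 0.5 Gy and 0.11 at 1 Gy, and the 3 members stood 0.88 and 0.97 above it. The number of miRNAs tested was 28 when detection on all 9 arrays was required and 174 when any spot above background counted.

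Signs that changed were those of small differences. From 0.5 Gy to 1 Gy, let-7a was -0.069 when scaled on all probes, -0.11 after normexp, -0.10 with total gene signal, -0.011 with the brightest probe, -0.047 within the slide of 6 arrays, and -0.15 without array 1 of 0.5 Gy and of 1 Gy or without array 1 of every dose. Leaving out 1 array gave -0.66 to 0.54. Without scaling let-7b was 0.069 and let-7c 0.076, and let-7c was 0.63 after quantile normalization; leaving out 1 array gave -0.39 to 0.23 for let-7b and -0.55 to 0.30 for let-7c. For differences between members on the same array, normexp turned let-7a minus let-7b to -0.018, -0.0089 and -0.014 and let-7a minus let-7c to -0.079, -0.054 and -0.066 (0.5 Gy, 1 Gy and both against 0 Gy), and let-7c minus let-7b to -0.016 from 0.5 Gy to 1 Gy, which was -0.018 within the slide of 6 arrays. Leaving out 1 array moved let-7a minus let-7b over -0.25 to 0.64 (0.5 Gy against 0 Gy), -0.13 to 0.66 (1 Gy), -0.27 to 0.44 (1 Gy against 0.5 Gy) and -0.19 to 0.56 (both doses). In the same 4 comparisons let-7a minus let-7c ran over -0.20 to 0.27, -0.096 to 0.34, -0.11 to 0.32 and -0.15 to 0.29. In the same 4 comparisons let-7c minus let-7b ran over -0.045 to 0.36, -0.038 to 0.37, -0.16 to 0.15 and -0.041 to 0.37. The causes were not tested. Signal over background limits the 5 members that reached the floor.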
